A study of Mus musculus with 7 samples.

Results

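The AP-1 family was followed through 8 genes: Fos, Fosb, Fosl1 and Fosl2 of the Fos subfamily, Jun, Junb and Jund of the Jun subfamily, and Atf3. They were picked by gene symbol, with no measured value in the rule, from a table of 52636 Ensembl genes, and each symbol matched a single row. The choice of these members was nevertheless made with earlier results of these data known. All 8 passed the filter on low counts and were among the 16248 genes tested. RNA was sequenced from inner cell masses, the part of the blastocyst that holds the epiblast and primitive endoderm, of mouse embryos with the genotype Sox2Cre;CRAFR26, which carry a cRAF construct that switches on ERK when tamoxifen is given. Embryos were flushed at E2.5 and kept for 24 h in KSOM medium, in which 250 nM PD173074 blocked the FGF receptors. The tamoxifen group (4 libraries, time label 4 h) also received 250 nM 4-hydroxytamoxifen (4OHT) for 4 h, and the vehicle group (3 libraries, time label 0 h) received ethanol for 4 h. The construct, the Cre driven from Sox2, and PD173074 were shared by both groups, so every comparison here is between embryos in which the FGF receptors were inhibited. No group lacked the construct, and an effect of the drug on embryos without it cannot be told apart from the effect of ERK. Embryos derived from 2 targeted clones, clone 4 and clone 8, and libraries are called by clone and number, such as vehicle clone4_1. Each was made from the pooled inner cell masses of 10 embryos. Clone 8 had 1 vehicle library, after another was discarded by the authors in quality control.

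AP-1 is a dimeric transcription factor built from basic leucine zipper proteins. Jun proteins pair with each other or with Fos proteins, Fos proteins bind DNA only with a partner, and the dimers recognise the site TGANTCA or the related cyclic AMP response element. Fos is the classic immediate early gene of ERK signalling: ERK activates ETS factors that sit with serum response factor on its upstream control region, and both the messenger RNA and the protein are short-lived. Jun is activated mainly by the kinase JNK and acts on its own promoter. Fosl1 (Fra-1) and Fosl2 (Fra-2) follow as delayed early genes when ERK stays active, and Atf3 is a stress-induced relative that can pair with Jun proteins and often represses.

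The sequences just upstream of the start sites of Fos and Jun are shown because these are the 2 most abundant members and the 2 whose values set the results described further on. They are RefSeq sequences of build GRCm38.p6, the 250 bases before the annotated start, written 5′ to 3′ on the strand of the gene. Capitals mark every match, on either strand, to 1 of 5 motifs: TGANTCA (the AP-1 site), TGACGT (the core of the cyclic AMP response element), TGACATCA (the AP-1-like site of the Jun promoter), TATAAA, and the CArG box that serum response factor binds. The Fos window is chr12:85473640-85473889 on the plus strand and the Jun window is chr4:95052223-95052472 on the minus strand.
Fos: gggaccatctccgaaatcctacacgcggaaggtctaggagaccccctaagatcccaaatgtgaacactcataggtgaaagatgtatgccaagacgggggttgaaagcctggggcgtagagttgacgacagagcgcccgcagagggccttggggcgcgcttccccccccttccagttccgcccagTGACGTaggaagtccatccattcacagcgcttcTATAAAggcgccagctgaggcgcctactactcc
Jun: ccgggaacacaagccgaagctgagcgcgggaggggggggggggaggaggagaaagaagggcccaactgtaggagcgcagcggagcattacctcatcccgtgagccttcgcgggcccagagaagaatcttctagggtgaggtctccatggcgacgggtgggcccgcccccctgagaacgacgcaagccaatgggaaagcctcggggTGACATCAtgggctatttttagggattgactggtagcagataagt

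The Fos window held TGACGT from base 66 to base 61 before the start and TATAAA from base 33 to base 28. The Jun window held TGACATCA from base 45 to base 38. RefSeq windows were found for 7 of the 8 members, all but Fosl1. In the Atf3 window TGACGT lay on the opposite strand, from base 8 to base 3 before the start. No window of the 7 held TGANTCA or a CArG box, and those of Fosb, Fosl2, Junb and Jund held none of the 5 motifs. Sequence further upstream than 250 bases was not searched, so sites there, including those of the Fos control region, would be missed. Of 32851 windows of the same length over all genes, 6.47% held TGACGT, 2.93% TGACATCA, 6.75% TGANTCA, 12.4% TATAAA and 1.47% a CArG box. RefSeq and GENCODE place the start at the same base for Fos and Jun, 6 bp apart for Fosb and 30 bp apart for Junb. For Fosl2, Jund and Atf3 the RefSeq start used lay 671 bp, 1210 bp and 34706 bp from the outermost GENCODE start.

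The 7 libraries held 22981498 to 42294719 counts. Vehicle clone8_1 stood apart: its genes with a typical transcript under 1000 nt had a median deviation of -1.29 on the log2 scale from the median library, against -0.038 to 0.22 in the other libraries. The labels give epiblast as the cell type, and all 10 markers of naive epiblast had counts. The 10 trophectoderm markers, which belong to the outer layer that immunosurgery removes, had counts too: their summed level was 8530 to 11228 CPM in vehicle and 6546 to 9534 CPM in tamoxifen libraries. The naive epiblast sum was 1678 to 2058 and 1734 to 2216 CPM. Of these 10 markers 8 had a positive and 2 a negative log2 fold change, where 8408 of the 16248 genes tested were positive. Their median was 0.41, against 0.019 over all genes tested, and the groups overlapped for all 10. All 10 trophectoderm genes had a negative log2 fold change, as did 7840 of the 16248 genes tested. The groups did not overlap, lower with tamoxifen, for 2 of the 10 and for 4.74% of all genes: Gata3 (828 to 986 against 607 to 699.9 CPM; log2 fold change -0.47 ± 0.14, SE) and Elf3 (842 to 858 against 453 to 728 CPM; -0.53 ± 0.18, SE). The primitive endoderm markers summed to 845 to 1148 CPM in vehicle and 884 to 1031 CPM in tamoxifen libraries. Of the 9 tested, 6 had a positive log2 fold change and 3 a negative one (Pdgfra -0.50, Dab2 -0.21 and Fgfr2 -0.067). Only Sox17 (0.298 to 4.34 against 7.80 to 27.1 CPM; 2.58 ± 0.75, SE) and Lama1 (3.51 to 5.20 against 6.75 to 16.3 CPM; 1.35 ± 0.36, SE) were higher in every tamoxifen library, 2 of 9 against 3.71% of all genes. The adjusted p of these 4 genes was 0.794 (edgeR). Fewer cells of a type and less RNA per cell cannot be told apart in pooled tissue, and the part of these differences in the results on Fos and Jun was not tested.

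Levels between members were compared as CPM (counts relative to the size of the library, after TMM scaling) per kb of a typical transcript. In vehicle libraries Fos was the most abundant member at 32.1 ± 12.3 CPM per kb (SD, n = 3), followed by Jun at 21.4 ± 4.09, Junb at 10.8 ± 4.58 and Jund at 3.43 ± 2.04 CPM per kb. Fosl2 (0.812), Atf3 (0.526), Fosb (0.258) and Fosl1 (0.179 CPM per kb) were each below 1. The lowest Fos value, in clone8_1, lay below the highest Jun value of 25.5 CPM per kb, so their ranges overlapped across libraries. Within each vehicle library Fos was above Jun, with ratios of 1.17, 2.12 and 1.21. The ranges of the 4 rare members overlapped too, apart from Fosl2 against Fosb and Fosl1. In tamoxifen libraries Jun was first at 14.5 ± 3.28 and Fos next at 12.4 ± 5.66 CPM per kb (SD, n = 4), again with overlapping ranges.

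The summed level of the 8 members was 68.0, 89.1 and 51.4 CPM per kb in vehicle clone4_1, clone4_2 and clone8_1. It was 48.6, 36.7, 40.9 and 43.9 CPM per kb in tamoxifen clone4_1, clone4_2, clone8_1 and clone8_2, below all vehicle libraries. Tamoxifen clone4_1 lay only just under vehicle clone8_1, and the sums were not examined under other scalings. Fos made up 40.8% to 50.9% of that sum in vehicle and 20.7% to 41.1% in tamoxifen libraries. The ratio of Fos to Jun per kb was 1.17, 2.12 and 1.21 in the vehicle libraries. In tamoxifen clone4_1 it was 1.54, inside the vehicle range, and in the other 3 tamoxifen libraries it was 0.591 to 0.690. These sums and ratios describe a group of genes chosen with earlier results in view and have no test.

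**Figure D1:**
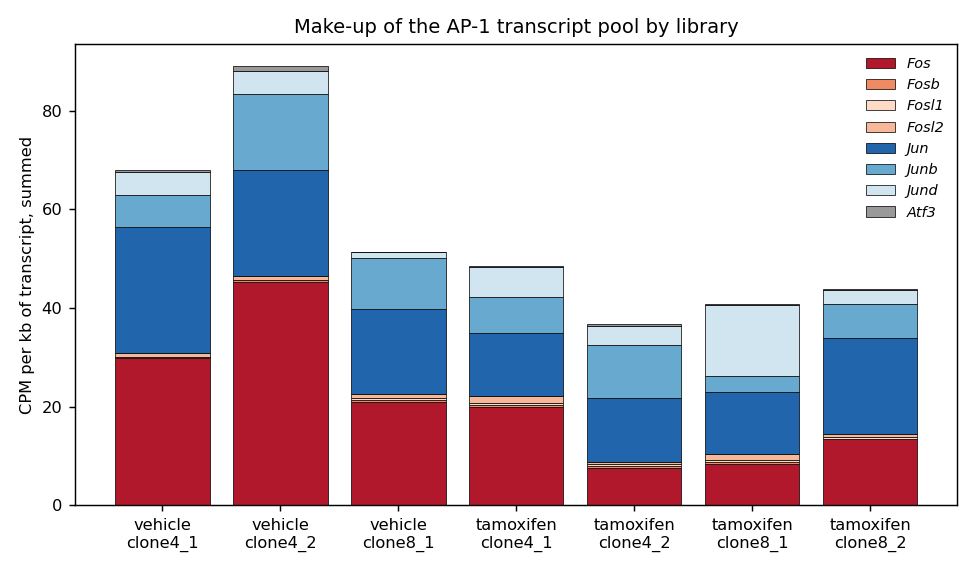
Stacked bars give the level of each AP-1 member in CPM per kb of typical transcript, 1 bar for each library. The vehicle bars reach 51.4 to 89.1 and the tamoxifen bars 36.7 to 48.6, and most of the difference lies in the Fos segment at the foot of each bar.

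Fos (ENSMUSG00000021250, chromosome 12, 85473890 to 85477273, plus strand, GRCm38, 4 exons) had 2543, 3071 and 1815 counts in vehicle clone4_1, clone4_2 and clone8_1, or 63.1, 95.6 and 44.2 CPM. In tamoxifen clone4_1, clone4_2, clone8_1 and clone8_2 it had 1777, 375, 494 and 1165 counts, or 42.1, 16.2, 17.8 and 28.3 CPM. Every tamoxifen library thus lay below every vehicle library, the highest tamoxifen value (clone4_1) only just under the lowest vehicle value (clone8_1). Fos was the sole member whose groups did not overlap in that direction, which 4.74% of all tested genes showed, and none did so in the opposite direction (3.71% of all genes). The separation was lost when scaling factors were computed from genes with transcripts of at least 2000 nt, where vehicle clone8_1 stood at 41.4 CPM and tamoxifen clone4_1 at 42.7 CPM. The log2 fold change was -1.37 ± 0.36 (SE), with a 95% interval from -2.17 to -0.57. Its unadjusted p was 0.00343 and its adjusted p, by the Benjamini-Hochberg method over all tested genes, 0.794 in edgeR's quasi-likelihood test. An exact two-sided permutation test of its mean log2 CPM gave p = 0.0571, where the smallest p that 35 assignments allow is 0.0286.

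By the same edgeR test 0 of the 8 members were called at an adjusted p under 0.05, as were 0% of the 16248 genes tested. At an unadjusted p under 0.05, Fos and Jun were lower with tamoxifen, 2 of 8 members against 3.28% of all tested genes, and 0 of 8 were higher, against 2.69%. Of the 8 members 4 had a positive and 4 a negative log2 fold change, with a median of -0.23 against 0.019 over all tested genes. DESeq2 and limma-voom also called 0 members, where they called 4 and 0 of the 16248 genes tested.

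**Figure D2:**
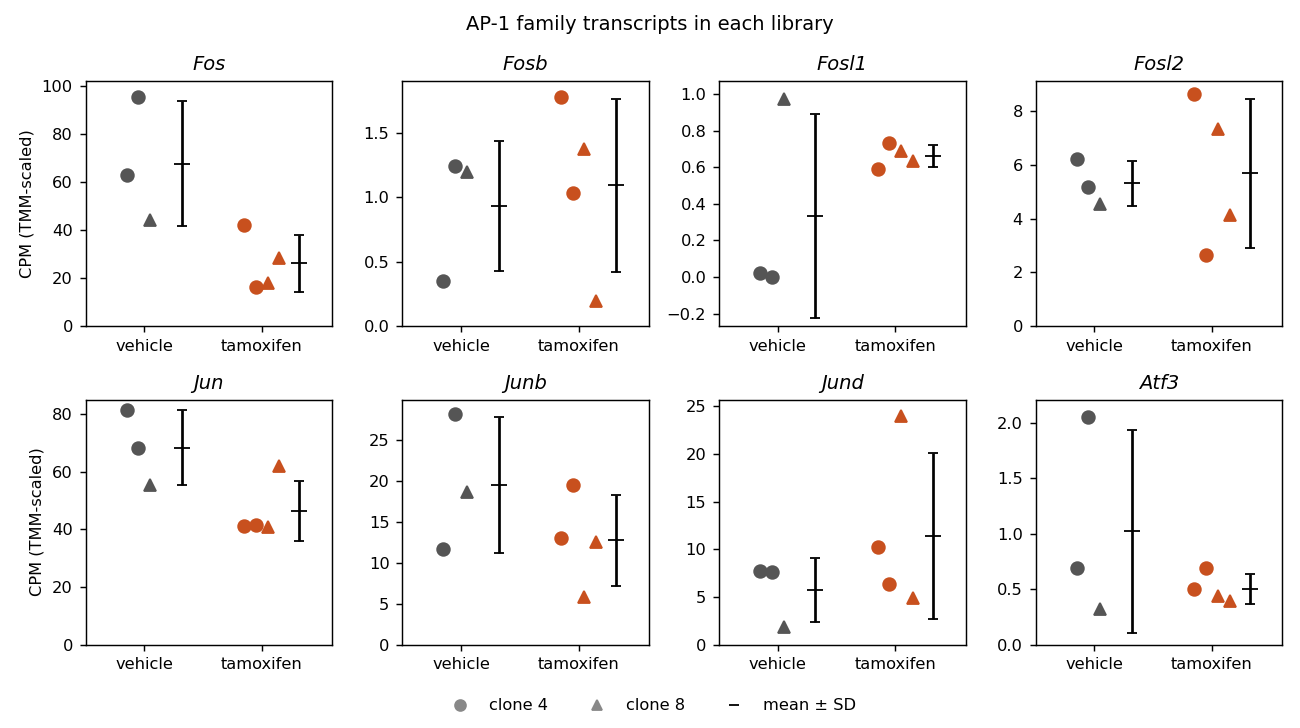
Each panel plots a member's level in CPM (linear axis, different for each panel) for the 3 vehicle and 4 tamoxifen libraries, with circles for clone 4, triangles for clone 8, and the mean ± SD beside them. Fos separates the groups (44.2 to 95.6 against 16.2 to 42.1 CPM), while the other 7 panels overlap.

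The other Fos relatives were rare, and none of them had an unadjusted p under 0.05. Fosb (ENSMUSG00000003545, chromosome 7, 19302696 to 19310051, minus strand), the closest relative of Fos, had 14, 40 and 49 counts in vehicle and 75, 24, 38 and 8 counts in tamoxifen libraries. That is 0.347 to 1.25 CPM against 0.194 to 1.78 CPM, so the tamoxifen values lay on both sides of the vehicle range. Its log2 fold change of 0.24 ± 0.80 (SE) had a 95% interval from -1.54 to 2.01. Fosl2 (ENSMUSG00000029135, chromosome 5, 32135801 to 32157842, plus strand) stood at 6.20, 5.17 and 4.56 CPM in vehicle and 8.64, 2.63, 7.33 and 4.13 CPM in tamoxifen libraries. The tamoxifen values spread wider than the vehicle values and enclosed them, with a log2 fold change of 0.10 ± 0.43 (SE; 95% interval -0.85 to 1.05).

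Fosl1 (ENSMUSG00000024912, chromosome 19, 5447547 to 5455946, plus strand) showed the most uneven vehicle group. Vehicle clone4_1 had 1 count and clone4_2 had 0, while vehicle clone8_1 had 40 counts, the highest of all 7 libraries. The tamoxifen libraries were close together, at 25, 17, 19 and 26 counts or 0.592, 0.733, 0.686 and 0.631 CPM, which is between the vehicle values. In vehicle clone4_2, 3 counts, the limit that a count of 0 allows if reads are independent, correspond to 0.0934 CPM. Fosl1 passed the filter on low counts through the tamoxifen libraries and vehicle clone8_1. Over all libraries edgeR fitted 0.97 ± 1.28 (SE) on the log2 scale (unadjusted p = 0.466, adjusted p = 0.878). It moved to 5.28 when vehicle clone8_1 was left out, a fitted value that depends on the prior count because the other vehicle libraries hold 1 count in all. Within clone 4 the pooled counts were 42 with tamoxifen and 1 with vehicle, a ratio of 46.5 after scaling that rests on 1 vehicle count. No interval is given for it, since amplified reads are not independent molecules. Ccdc85b overlaps Fosl1 on the other strand, and it had 49 to 225 counts in every library, 142 and 90 of them in the 2 vehicle libraries where Fosl1 was at or near 0.

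Jun (ENSMUSG00000052684, chromosome 4, 95049034 to 95052222, minus strand, a single exon), the main partner of Fos, stood at 81.5, 68.3 and 55.4 CPM in vehicle clone4_1, clone4_2 and clone8_1. In tamoxifen clone4_1, clone4_2 and clone8_1 it was nearly constant at 41.2, 41.4 and 40.7 CPM, and clone8_2 stood at 62.0 CPM, inside the vehicle range. The fitted log2 difference was -0.56 ± 0.21 (SE; 95% interval -1.04 to -0.085), with p = 0.0254 before and 0.794 after adjustment in edgeR's test and p = 0.0857 in the exact permutation test. Without tamoxifen clone8_2 the log2 fold change was -0.73 (unadjusted p = 0.00549, adjusted p = 0.716), and without vehicle clone4_1 it was -0.43 (unadjusted p = 0.102). The unadjusted p was also above 0.05 (0.0541 to 0.0603) when vehicle clone4_2, tamoxifen clone4_1, tamoxifen clone4_2 or tamoxifen clone8_1 was left out. The antisense gene Junos had 1 to 41 counts per library, against 960 to 3283 for Jun.

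Junb (ENSMUSG00000052837, chromosome 8, 84974484 to 84978718, minus strand), a Jun relative that activates less strongly, had 11.7, 28.2 and 18.6 CPM in vehicle and 13.0, 19.6, 5.85 and 12.6 CPM in tamoxifen libraries. The groups overlapped and the log2 fold change was -0.61 ± 0.40 (SE; 95% interval -1.52 to 0.29; unadjusted p = 0.160, edgeR). It was -0.25 without vehicle clone4_2 and -0.37 without tamoxifen clone8_1. Prdx2, which overlaps Junb on the other strand, had 3394 to 6783 counts per library, against 162 to 905 for Junb. Since the strand setting of the counting is not given in the sources used here, reads of the shared stretch cannot be assigned. Jund (ENSMUSG00000071076, chromosome 8, 70698949 to 70700616, plus strand), the Jun gene that most cells express at rest, had 7.77, 7.60 and 1.80 CPM in vehicle and 10.3, 6.38, 23.9 and 4.83 CPM in tamoxifen libraries. The highest and the lowest value were both in libraries numbered clone8_1, tamoxifen and vehicle respectively. Tamoxifen clone8_1, highest in Jund, was also the lowest library for Junb. The log2 fold change of Jund was 0.99 ± 0.63 (SE; 95% interval -0.42 to 2.39; unadjusted p = 0.148, edgeR), and -0.11 without the pair of libraries numbered clone8_1.

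Atf3 (ENSMUSG00000026628, chromosome 1, 191170296 to 191218039, minus strand) had 28, 66 and 13 counts in vehicle and 21, 16, 12 and 16 counts in tamoxifen libraries. Vehicle clone4_2 stood out at 2.06 CPM, while the other 6 libraries were between 0.317 and 0.695 CPM. The log2 difference, -1.02 ± 0.76 (SE) with an unadjusted p of 0.210 in edgeR, moved to -0.016 without vehicle clone4_2. That library was also the highest of the 7 for Fos and Junb.

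The clones were compared next. For Fos, clone 4 went from 63.1 and 95.6 CPM to 42.1 and 16.2 CPM, and clone 8 from 44.2 CPM to 17.8 and 28.3 CPM, lower with tamoxifen in each. Within clone 4 the log2 fold change of Fos was -1.45 ± 0.44 (SE; unadjusted p = 0.0126, adjusted p = 0.557) and that of Jun -0.87 ± 0.19 (SE; unadjusted p = 0.00224, adjusted p = 0.550) in edgeR's test on 2 libraries per condition. These were the only members lower there at an unadjusted p under 0.05, which 4.33% of 16060 genes were. DESeq2 called both within clone 4, with adjusted p-values of 0.0116 for Fos and 0.0126 for Jun, where it called 0.872% of genes. So did edgeR without a filter on low counts, which called 0.827%. Jun alone was called when vehicle clone4_2 was left out, with 1.8% of genes, but that fit has 1 vehicle library, which is assumed to vary like the tamoxifen libraries. Fosl1 entered the clone 4 fit only through the tamoxifen libraries, where it is high, so its test there is not given. None of the other 7 members was higher at an unadjusted p under 0.05, against 3.54% of genes. For Jun, clone 8 stood at 55.4 CPM in vehicle and at 40.7 and 62.0 CPM in tamoxifen libraries, on both sides of it.

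The difference between the clones was tested by the interaction of clone and condition, which rests on vehicle clone8_1. At an adjusted p under 0.05 it was called in 0 of 8 members by edgeR, against 3.16% of all tested genes. For Fos it was 0.50 ± 0.70 on the log2 scale (SE; clone 8 minus clone 4; adjusted p = 0.795) and for Jun 0.75 ± 0.40 (SE; adjusted p = 0.425). The fitted value for Fosl1, -5.86, rests on 1 count in the clone 4 vehicle libraries. Fosl1 passed the filter on low counts only through the libraries where it is high, so its test is not given. Of the other members only Jund (2.87 ± 1.10, SE; unadjusted p = 0.0296, adjusted p = 0.276) had an unadjusted p under 0.05. Over all genes tested, 2398 of 16248 had such an unadjusted p in edgeR's test, so the count is no result about the members. The value for Jund, 1 of 8 members, was called by DESeq2, which called 6.3% of all genes. It was also called by edgeR without a filter on low counts (3.49% of genes) and without tamoxifen clone8_2 (4.46%). Vehicle clone8_1 held the highest Fosl1 and the lowest Jund level of the 7 libraries.

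**Figure D3:**
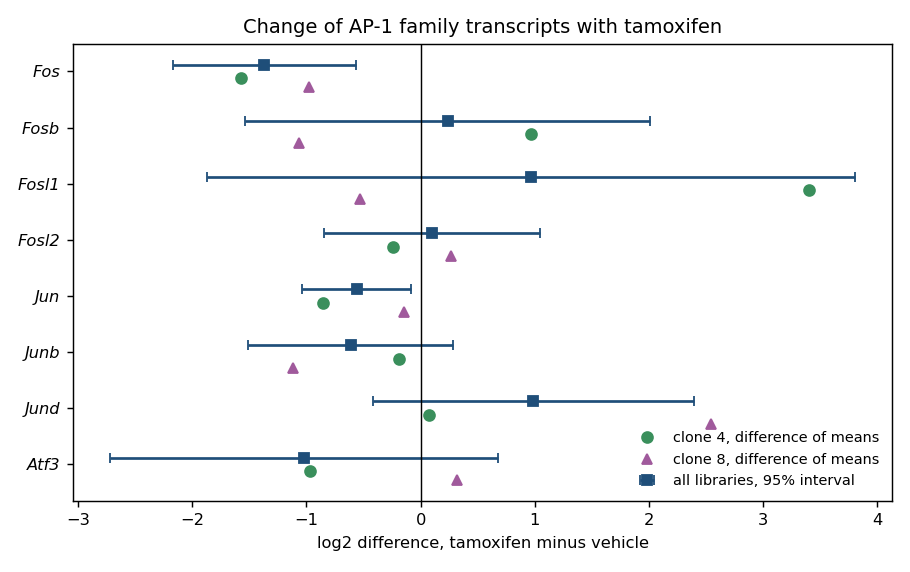
The horizontal axis gives the log2 difference, tamoxifen minus vehicle, for each member: squares with 95% intervals from edgeR over all libraries, circles for the difference in mean log2 CPM within clone 4 and triangles within clone 8 (1 vehicle library, no interval). The intervals of Fos (-2.17 to -0.57) and Jun (-1.04 to -0.085) lie below 0, unadjusted for the number of genes, and the circle of Fosl1 rests on 1 vehicle count.

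The members did not vary as a unit across libraries. Over the 7 libraries, which include both conditions and so share the difference between them, the Pearson r of log2 CPM was 0.74 between Fos and Jun and 0.51 between Fos and Junb. It was -0.26 between Fos and Jund, -0.62 between Junb and Jund and -0.78 between Fos and Fosl1. Fosl1 had 1 and 0 counts in vehicle clone4_1 and clone4_2, where its log2 CPM depends largely on the prior count. The Spearman rank correlations of these pairs, in the same order, were 0.71, 0.25, -0.071, -0.50 and -0.64. Among 8050 genes with a mean of at least 10 CPM, the 5 most like Fos were Sh3bgrl2 (r = 0.98), Ppp1r3b, a subunit that targets protein phosphatase to glycogen (0.98), Bbx (0.97), Rprd1a (0.96) and the DNA methyltransferase gene Dnmt3b (0.96). The 5 most like Jun were Gprc5a, Zfp472, the pseudokinase gene Trib1, the helicase gene Dhx9 and the kinase gene Stk17b, with r from 0.97 to 0.98. Of the 8050 genes, 35 had r above 0.9 with Fos and 51 with Jun.

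Genes that control, share or follow AP-1 were examined in lists drawn from general knowledge. Of 16 upstream regulators 0 were called, and 9 had a positive and 7 a negative log2 fold change, with a median of 0.19. The median was -0.084 without tamoxifen clone8_1. The factors that carry ERK signals to the Fos promoter had intervals that included 0: Srf was at 0.44 (95% interval from edgeR -0.54 to 1.42), Elk1 at 0.44, Elk3 at 1.08 (-0.38 to 2.54) and Elk4 at -0.15 on the log2 scale. Mapk8, which encodes the Jun kinase JNK1, was the only regulator with an unadjusted p under 0.05 (0.0113). That is 1 of 16 in a test where 3.28% of all genes were lower and 2.69% higher, so the count is no result about the regulators. It stood at 18.1, 18.2 and 24.1 CPM in vehicle and 10.7, 14.1, 12.03 and 13.3 CPM in tamoxifen libraries, groups that did not overlap. The log2 difference was -0.69 ± 0.22 (SE), at an adjusted p of 0.794 (edgeR). Its partner kinase gene Mapk9 was at -0.05.

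Among 8 genes for turnover of AP-1 messenger RNA and protein, 0 were called, and the groups did not overlap for 1, against 3.71% of all genes higher in that way. This was Khsrp, which encodes a protein that binds AU-rich elements and promotes decay of short-lived messengers. It stood at 19.2, 29.0 and 29.2 CPM in vehicle and 36.0, 41.7, 65.6 and 29.9 CPM in tamoxifen libraries. All tamoxifen values were above the vehicle values, by 0.75 ± 0.29 (SE) on the log2 scale, with edgeR p-values of 0.0269 before and 0.794 after adjustment. Zfp36, another decay factor and itself an immediate early gene, was at -0.53 with overlapping groups (unadjusted p = 0.0455).

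Of 18 basic leucine zipper partners 14 were tested, 7 with a positive and 7 with a negative log2 fold change, and none had an unadjusted p under 0.05. Atf4, a factor of the amino acid and unfolded protein stress responses, stood at 171 CPM in vehicle and 139 CPM in tamoxifen libraries, a log2 fold change of -0.30. Of 20 genes known as AP-1 targets 11 were tested and 0 called, with 5 positive and 6 negative values and a median of -0.15. Cd44 and Areg had 0 counts in all libraries, and genes below the filter included Mmp3, Mmp13, Mmp14, Plau, Tgfb1 and Vegfa. Timp1 was higher with tamoxifen at an unadjusted p of 0.0143 with overlapping groups (2.91 against 7.39 CPM on average), and Plaur, the urokinase receptor gene, was lower in all tamoxifen libraries at an unadjusted p of 0.0595.

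Of 13 other immediate early genes 11 were tested and 0 called, and 8 had a negative log2 fold change, with a median of -0.16. At an unadjusted p under 0.05, 2 of the 11 were lower, against 3.28% of all genes. Klf6 stood at 363, 300.3 and 196 CPM in vehicle and at 183, 165, 175 and 181 CPM in tamoxifen libraries. Like Fos it was lower in every tamoxifen library, with the nearest vehicle value in clone8_1. Whether this holds with scaling on long transcripts was not examined. The log2 difference was -0.70 ± 0.20 (SE), with edgeR p-values of 0.00611 before and 0.794 after adjustment. In mean log2 CPM the Klf6 difference was -0.93 in clone 4 and -0.14 in clone 8, which has 1 vehicle library. For Fos these differences were -1.57 and -0.98. Dusp1, a MAP kinase phosphatase gene, averaged 60.0 CPM in vehicle and 34.7 CPM in tamoxifen libraries, with overlapping groups (edgeR, unadjusted p = 0.0232, adjusted p = 0.794). Its sign differed between the clones, with a difference in mean log2 CPM of -1.13 in clone 4 and 0.27 in clone 8. Ier2 (117 and 109 CPM), Nr4a1 (30.0 and 27.8 CPM) and Egr1 (9.95 and 11.5 CPM) were closer between the groups. The 10 heat shock genes, which respond to handling stress, summed to 11975 to 13477 CPM in vehicle and 10724 to 12911 CPM in tamoxifen libraries, with 2 positive and 8 negative log2 fold changes and none with an unadjusted p under 0.05. The part of handling in the levels of Fos and Jun was not tested.

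**Figure D4:**
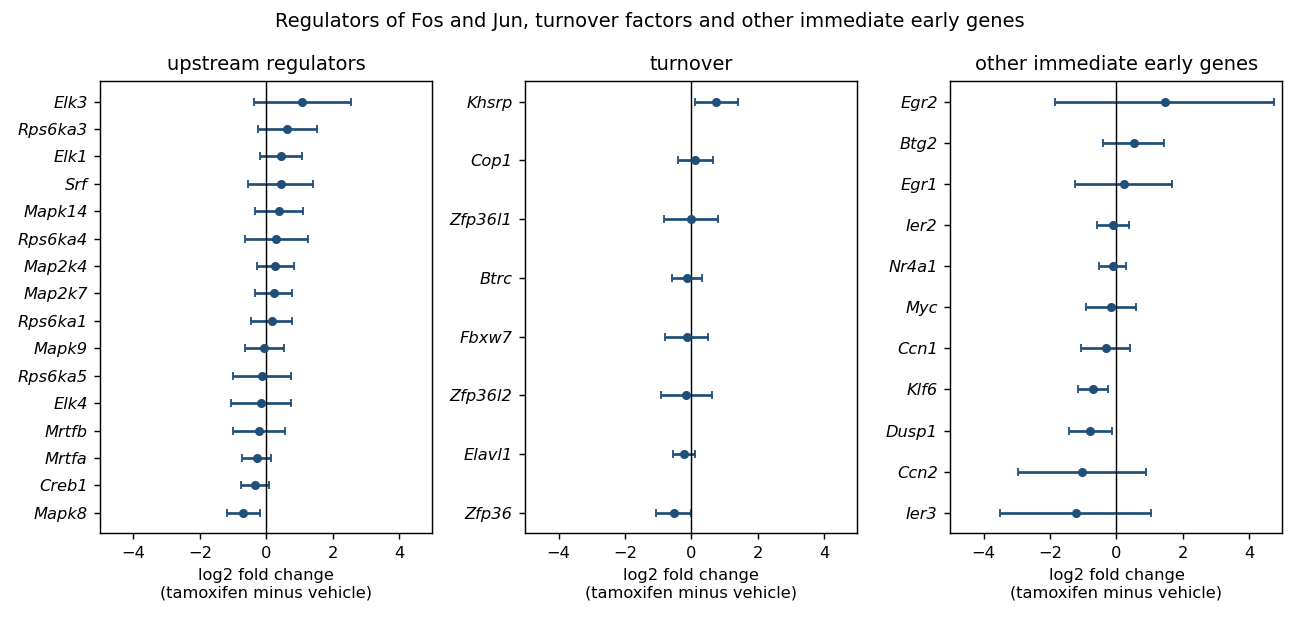
Points give the log2 fold change, tamoxifen minus vehicle, of the tested upstream regulators, turnover genes and other immediate early genes, with 95% intervals from edgeR that are not adjusted for the number of genes. The intervals of Mapk8, Khsrp, Zfp36, Klf6 and Dusp1 exclude 0, and the others include it.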

How the data were processed

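RNA was extracted from pools of 10 inner cell masses and libraries were made from 2 ng with a low-input amplification kit, per the labels' protocols. The authors deposited raw counts per Ensembl gene. The submitters' processing notes name the aligner STAR 2.5.3a and the build mm10; the counting program, annotation release, strand setting and duplicate handling are not given in the sources used here. Amplified reads without molecular identifiers are not independent molecules. Symbols, coordinates and typical transcript lengths come from GENCODE M21 (GRCm38), in which 52489 of 52636 gene IDs were found. The test was edgeR's quasi-likelihood fit (edgeR 4.0.16, R 4.3.3) of condition alone on all genes, after filtering by expression within groups and TMM scaling, with Benjamini-Hochberg adjustment and a threshold of 0.05. Standard errors were taken from the log2 fold change and its F statistic. CPM use the tested genes' library sizes; log2 CPM use a prior count of 2. Alternatives used DESeq2 1.42.0, limma 3.58.1, other scalings and filters, and left-out libraries; the scripts were tested on simulated data. P-values measure the spread between these pools. The members, the lists and the tests were chosen with earlier results of these data known. Named list genes had an unadjusted p under 0.05 and groups that do not overlap, or were added after their values were seen (Srf, Elk1, Elk3, Elk4, Pdgfra, Dab2, Fgfr2, Mapk9, Zfp36, Atf4, Timp1, Plaur, Dusp1, Ier2, Nr4a1, Egr1).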

Additional observations from a re-analysis of the deposited data

Results flagged for a closer look

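Jun in tamoxifen clone8_2 lay far from the other 3 tamoxifen libraries, at 62.0 CPM against 40.7 to 41.4 CPM. With 4 libraries and 8 members examined, about 1 in 20 such groups is marked by chance. Of the 4 tamoxifen libraries this was the only one inside the vehicle range for Jun (55.4 to 81.5 CPM).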

How the results depend on the processing

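Over 18 alternatives the log2 fold change of Fos kept its sign (-1.72 to -1.04, adjusted p 0.146 to 0.961), as did those of Jun (-0.73 to -0.43) and Junb (-0.91 to -0.25). The count of members called by condition was 0 in all 18, including the fit with the replicate block (Fos -1.48, adjusted p = 0.852). Over all genes these fits called 0 to 4, so the count is no result about the members. Same-numbered libraries of the groups showed little shared deviation (r = 0.0078, 0.021 and -0.068 over 3 pairs), and none of the 3 vehicle libraries correlated best with its own number. With so few pairs this check cannot tell whether same-numbered libraries were linked. Within clone 4, the count of members called was 2 with DESeq2, 2 without a filter on low counts, and 0 to 1 when a library was left out (1, Jun, without vehicle clone4_2, a fit with 1 vehicle library). For the interaction it was 1, 1 and 0 to 1 (Jund each time, without tamoxifen clone8_2). Over all genes, calls within clone 4 were 0 with edgeR, 140 with DESeq2, 217 without a filter and 289 without vehicle clone4_2, and calls for the interaction were 514, 1023 and 991 in the first 3 of these and 52 to 695 with a library left out. Signs that turned, by condition: without both libraries numbered clone8_1 Fosl2 was at -0.15 and Jund at -0.11, and with a library left out Fosb ranged from -0.18 to 0.59 and Fosl2 from -0.19 to 0.32. Within clone 4 the same ranges were -1.12 to 0.60 for Fosl2, -0.81 to 0.47 for Junb and -0.27 to 0.42 for Jund. For the interaction they were -0.040 to 1.31 for Fos and -0.29 to 1.40 for Fosl2. The causes were not tested. Scaling on long transcripts was chosen after the data were seen; no scaling moved the median of all genes by over 0.1. Depth limits Fosb, Fosl1 and Atf3, with 0 to 75 counts per library.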
